A study of Homo sapiens and Mus musculus with 28 samples.

Results

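Genes that hold back or drive entry into the cell cycle were followed across all libraries of the series. They were the CIP/KIP inhibitors CDKN1A, CDKN1B and CDKN1C, the INK4 inhibitors CDKN2A, CDKN2B and CDKN2C, the D cyclins CCND1, CCND2 and CCND3, and the kinase CDK6. They were taken by gene identity and not by any measured value. All 10 had a row in every file, of 60662 genes in the degron files, 60649 in the culture files and 62700 in the xenograft files.

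D cyclins bind the kinases CDK4 and CDK6, and the active kinases phosphorylate the retinoblastoma protein, which frees E2F factors to switch on the genes of DNA replication. INK4 inhibitors bind CDK4 and CDK6 and keep D cyclins off them, whereas CIP/KIP inhibitors block the cyclin-bound kinases that act next, foremost CDK2. In the gut, p21 (CDKN1A) and p27 (CDKN1B) are known from cells that leave the proliferating crypt, and cyclin D1 (CCND1) is often high in colorectal tumours.

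The samples were RNA-seq libraries of DLD-1, an established human colorectal adenocarcinoma line, in which the transcription factor GATA6 was removed in either of 2 ways. In GATA6-AID-IAA7 cells the protein carries a degron, a tag through which auxin (IAA, 500 µM) marks it for destruction. Its 4 groups were controls, a 12 h auxin group, a washout group (12 h of auxin, washes and 24 h in fresh medium) and a 72 h auxin group, with 3 libraries each. Controls have the label auxin at 0 h and were taken as untreated. All 4 groups carry the tag, no library came from washed cells without auxin, and whether more than 1 clone was used is not given. The other 4 groups were GATA6 CRISPR KO and WT cells in culture (3 libraries each) and tumours of KO and control cells in athymic nude mice (5 libraries each). Mice were 5 to 6 weeks old, 10 per condition, with cells injected in the flank. How many KO clones were used is not given. Nothing in the labels ties a replicate to its own culture or mouse, so p-values measure the spread between these libraries, which may be technical. The labels name mouse as the organism of the tumour libraries, but their files list human genes, and the handling of mouse reads is not given in the sources used here.

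The genes lie on 6 chromosomes of hg38 (positions from GENCODE 29, all protein-coding). CDKN1A (ENSG00000124762) spans chromosome 6 from 36676460 to 36687339 on the plus strand. CCND3 (ENSG00000112576) spans chromosome 6 from 41934933 to 42050357 on the minus strand. CDKN1B (ENSG00000111276) and CCND2 (ENSG00000118971) lie on the plus strand of chromosome 12, from 12715058 to 12722371 and from 4273772 to 4305350. CDKN1C (ENSG00000129757) lies on chromosome 11 from 2883213 to 2885773 (minus), within an imprinted domain, and CCND1 (ENSG00000110092) on the same chromosome from 69641087 to 69654474 (plus). CDKN2A (ENSG00000147889, 21967753 to 21995301) and CDKN2B (ENSG00000147883, 22002903 to 22009363) are neighbours on the minus strand of chromosome 9, while CDKN2C (ENSG00000123080) lies on chromosome 1 from 50960745 to 50974633 (plus) and CDK6 (ENSG00000105810) on chromosome 7 from 92604921 to 92836594 (minus). The strand setting of the counting is not given, and 7 of the genes overlap a gene on the opposite strand, so their values are less certain. These were CDKN1A with DINOL, CDKN2A and CDKN2B with CDKN2B-AS1, CCND1 with LTO1, CCND2 with CCND2-AS1, CCND3 with AL513008.1 and CDK6 with AC002454.1.

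Promoters are shown for 4 genes: CDKN1A and CDKN1B, the inhibitors with the highest transcript levels at 72 h and in KO cells, CDKN2B, an INK4 inhibitor that rose in KO cells and tumours, and CDK6, the kinase that fell. CDKN2C and CDKN1C, which also rose, are not shown. Each is the 250 bases before the RefSeq start (GRCh38.p14), 5′ to 3′ on the gene's strand: CDKN1A chromosome 6, 36678464 to 36678713 (plus), CDKN1B chromosome 12, 12717118 to 12717367 (plus), CDKN2B chromosome 9, 22009306 to 22009555 (minus), and CDK6 chromosome 7, 92836574 to 92836823 (minus; the first of its 2 starts). Capitals mark GC boxes, the GGGCGG that SP factors bind, on either strand.
CDKN1A: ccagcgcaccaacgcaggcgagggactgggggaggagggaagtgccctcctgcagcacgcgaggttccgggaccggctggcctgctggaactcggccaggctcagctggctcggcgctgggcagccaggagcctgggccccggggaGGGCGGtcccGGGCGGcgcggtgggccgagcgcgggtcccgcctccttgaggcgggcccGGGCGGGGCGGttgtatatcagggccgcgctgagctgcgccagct
CDKN1B: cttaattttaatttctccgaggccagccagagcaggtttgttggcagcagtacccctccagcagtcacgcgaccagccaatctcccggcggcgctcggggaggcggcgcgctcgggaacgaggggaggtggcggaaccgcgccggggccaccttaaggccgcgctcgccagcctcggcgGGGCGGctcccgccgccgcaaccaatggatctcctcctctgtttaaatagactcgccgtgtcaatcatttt
CDKN2B: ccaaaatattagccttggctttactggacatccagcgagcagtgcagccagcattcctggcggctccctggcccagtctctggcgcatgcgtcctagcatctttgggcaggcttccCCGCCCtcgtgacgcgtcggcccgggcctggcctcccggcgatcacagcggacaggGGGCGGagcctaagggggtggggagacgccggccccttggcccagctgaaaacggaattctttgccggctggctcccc
CDK6: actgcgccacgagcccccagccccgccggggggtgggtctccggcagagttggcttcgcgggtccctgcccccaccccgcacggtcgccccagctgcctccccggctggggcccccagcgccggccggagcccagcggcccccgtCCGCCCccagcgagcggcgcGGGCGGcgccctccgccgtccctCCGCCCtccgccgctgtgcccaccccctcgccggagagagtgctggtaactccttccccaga
The CDKN1A promoter holds 4 GC boxes within 104 bases of the start, at -104, -94, -45 and -40 (leftmost base), the last pair overlapping by 1 base. CDKN1B has a single GC box at -71, CDKN2B has 2, at -134 and -78, and CDK6 has 3, at -105, -85 and -62. RefSeq windows of 300 bases (250 before to 50 after a start) were found for 7 of the 10 genes, 13 windows in all. CDKN1C, CCND1 and CCND2 had no entry. On both strands, the GATA motif (AGATAA or AGATAG or TGATAA or TGATAG) was in 0 of the 13 windows, against 25.0% of all 34796 distinct windows of that length. GC boxes were in 9 of 13 windows, covering all 7 genes, against 44.9% of all windows. The E-box CACGTG, which MYC and its relatives bind, was in 3 of 13 windows (CDKN2C and CDK6), against 7.2%. The E2F motif (TTTCGCGC or TTTGGCGC or TTTCCCGC) and TATAAA were in 0 of 13, against 2.73% and 11.6%. These are letter matches and say nothing of binding elsewhere. The 13 windows held 46.3 to 78.0% GC, and the shares of all windows were not matched for GC.

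Depth was 14569850 to 36500654 counts per library. On the first principal component of the degron libraries (48.4% of variance) the 72 h libraries lay apart, at 49.8 to 54.3 against -20.3 to -9.4 for the rest. Haemoglobin transcripts reached 4897 and 1027 counts in 12 h replicates 2 and 3 and 227 and 2739 in washout replicates 1 and 3, against 5 or fewer in the other degron libraries. GATA6, the targeted gene, was checked first. It averaged 21.9 CPM in KO and 74.2 CPM in WT cultures (fell 3.39-fold) and 35.1 CPM in KO and 73.2 CPM in control tumours (fell 2.09-fold), without overlap of groups. The KO transcript thus remained detectable, and in degron cells auxin acts on the protein, which was not measured. The GATA6 transcript of degron cells was also lower at 72 h, at 34.1 CPM against 46.6 CPM in controls (fell 1.37-fold, without overlap). At 12 h and after washout it averaged 45.2 and 49.3 CPM, and both groups overlapped the controls. Summed RNA-quality transcripts (mitochondrial and small or nuclear RNAs) also moved with the groups: 42670 to 43130 TPM at 72 h against 31690 to 38830 in degron controls, 40350 to 43570 TPM in KO against 54100 to 64550 in WT cultures, and 34850 to 54290 TPM in KO against 22870 to 32560 in control tumours. Their part in the results below was not tested. Summed markers of colorectal epithelium were at 7662 TPM or above in every library. The leukocyte list (7 genes) summed to 22.5 to 23.3 TPM in KO and 4.83 to 6.18 TPM in WT cultures, nearly all of it CD68, with PTPRC at 6 counts or fewer and CD3E at 0. In degron cells it summed to 1.92 to 5.64 TPM at 12 h and 1.12 to 8.86 TPM after washout, against 1.71 to 2.55 TPM in controls. Its genes CD74 and LYZ had log2 values of 5.6 and 4.3 at 12 h and 5.7 and 6.2 after washout, which did not pass.

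Transcript levels are compared between genes in TPM (transcript abundance scaled to library size and gene length). CCND1 was the highest of the 10 genes in every group, at means of 171 to 594 TPM. Among D cyclins it was followed by CCND3, at 15.3 to 71.0 TPM, while CCND2 averaged at most 0.186 TPM. CDKN1B was the highest inhibitor in every group (43.0 to 82.7 TPM). Next came CDKN1A (7.58 to 45.6 TPM), CDKN2C (6.14 to 17.1 TPM) and CDKN1C (16.9 to 25.4 TPM in tumours and 4.63 to 8.25 TPM in cells), in an order that differed between groups. In KO tumours CDKN1A was above CDKN1C and CDKN2C (45.6, 25.4 and 11.2 TPM). In control tumours CDKN1C (16.9 TPM) was above CDKN1A and CDKN2C, whose ranges overlapped. CDKN2B stayed at 0.48 to 2.31 TPM, CDK6 at 1.98 to 6.21 TPM and CDKN2A at or below 0.377 TPM.

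**Figure D1:**
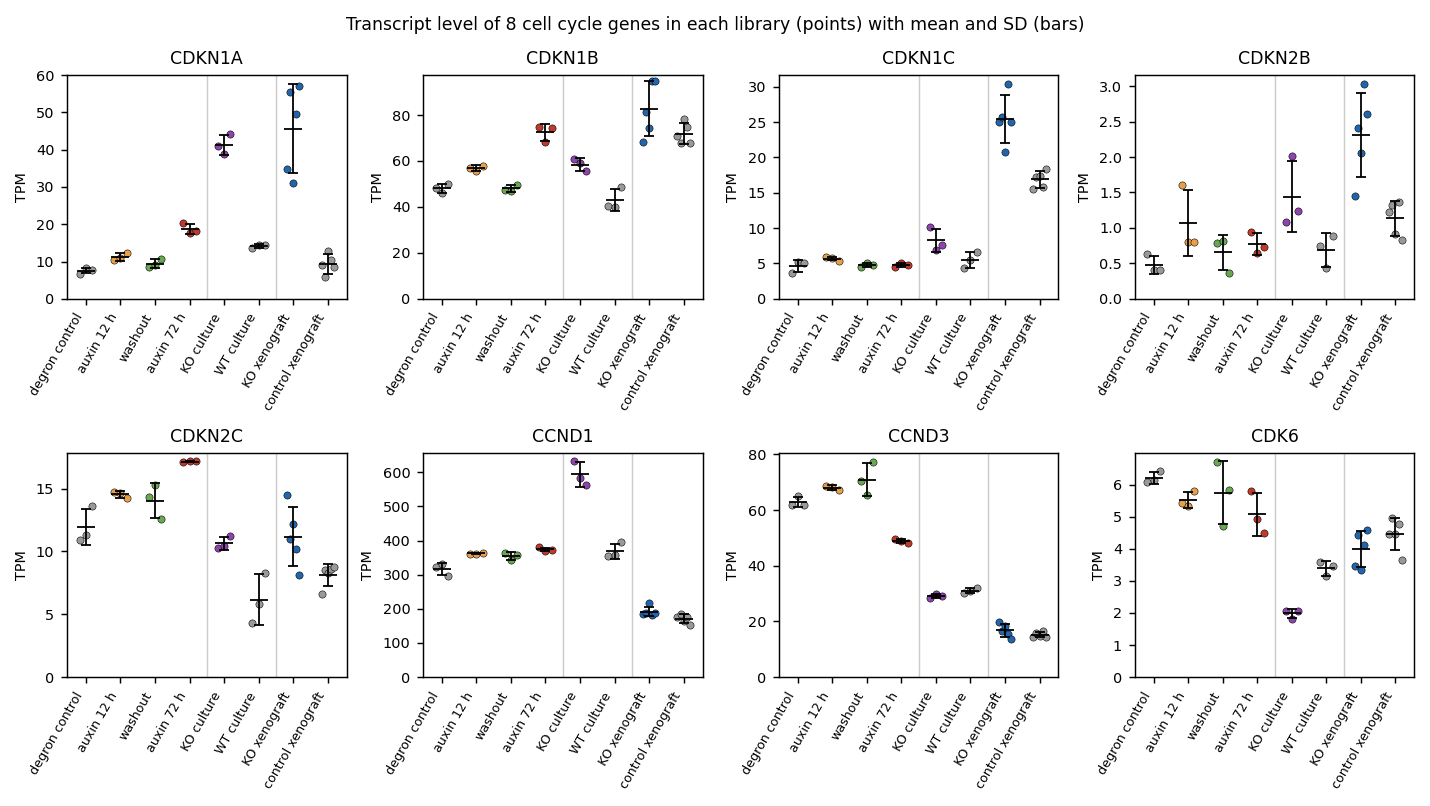
Transcript level in TPM (y axis, linear from 0) of the 8 genes with counts in every group, in each of 28 libraries (points), with the mean and SD of each group (bars). CDKN1A sits at 31.0 to 57.1 TPM in KO tumours, above the 5.94 to 12.9 TPM of control tumours, and CDK6 at 1.81 to 2.07 TPM in KO cultures, below the 3.14 to 3.58 TPM of WT cultures.

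Changes were tested on counts with edgeR's quasi-likelihood test, and a gene was called at a p-value under 0.05 after Benjamini-Hochberg adjustment over all genes tested. CDKN2A passed the filter on low counts in no system and CCND2 only in tumours, which left 8 of the 10 genes tested in cells and 9 in tumours. At 12 h of auxin 3 of 8 were called against degron controls, all of them higher, against 7.39% of all genes called (4.04% higher, 3.35% lower). After washout 1 of 8 was called, and was higher, against 5.00% of all genes (2.64% higher, 2.36% lower). At 72 h 4 of 8 were higher and 2 lower, and in KO cultures 5 of 8 were higher and 2 lower. The shares of all genes called were 57.8% at 72 h (28.3% higher, 29.5% lower) and 59.1% in KO cultures (30.4% higher, 28.7% lower). In KO tumours 7 of 9 were higher and 1 lower, against 56.1% of all genes called (28% higher, 28.1% lower); the one that was lower, CCND2, passed the filter through the control tumours alone and so had to differ. The median log2 fold change of the tested members was 0.22 at 12 h (all genes -0.01), 0.16 in washed cells (0.00), 0.19 at 72 h (0.00), 0.44 in KO cultures (0.02) and 0.28 in KO tumours (-0.01). Groups did not overlap in CPM for 3 of 8 members at 12 h (24.0% of all genes), 3 in washed cells (20.8%), 7 at 72 h (63.9%), 7 in KO cultures (64.3%) and 5 of 9 in KO tumours (40.9%). The 5 of 9 and the median in KO tumours include CCND2, whose separation follows from how it passed the filter. The 12 h, washout and 72 h comparisons share their control libraries. In bulk RNA, fewer cells of a kind and less RNA per cell cannot be told apart.

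**Figure D2:**
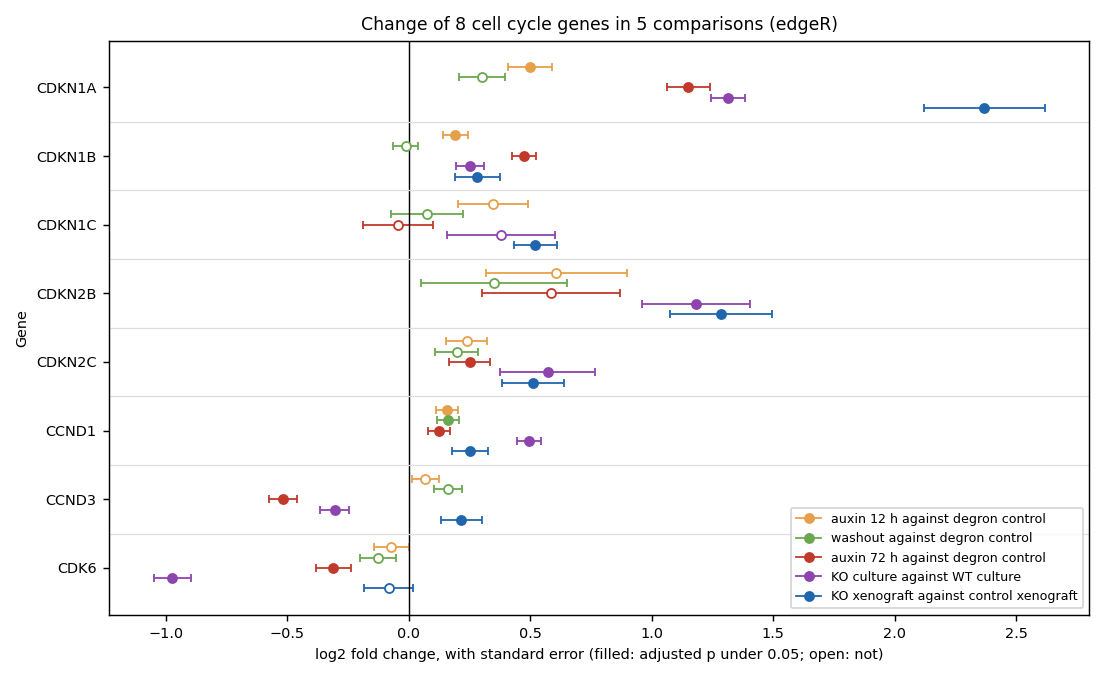
Log2 fold change (x axis) of 8 genes (rows) in 5 comparisons (colours), with the standard error as bars and filled points for adjusted p under 0.05. CDKN1A lies at 0.50, 0.30, 1.15, 1.31 and 2.37 in the order of the legend, and CDK6 is the gene with the lowest value, -0.97 in KO cultures.

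CDKN1A, which encodes p21, rose at 12 h and 72 h of auxin, in KO cultures and in KO tumours, and had the highest fold change of the tested members in each of the last 3. Levels per library are given as CPM, counts scaled to library size by TMM. The degron controls had 10.5, 12.2 and 11.8 CPM, the 12 h libraries 15.9, 17.0 and 15.9 CPM, the washed libraries 13.0, 13.6 and 16.0 CPM and the 72 h libraries 26.5, 25.9 and 24.4 CPM. All 12 h, washout and 72 h libraries were above all controls, and all 72 h libraries above the rest, while washout overlapped 12 h. The log2 fold change from control was 0.50 at 12 h (SE 0.0917, adjusted p = 0.000881) and 1.15 at 72 h (2.22-fold, SE 0.0872, adjusted p = 5.79e-11). At 72 h the gene was also higher than at 12 h (0.65, adjusted p = 3.94e-07). Washout did not pass against control (0.30, 95% interval 0.12 to 0.49, adjusted p = 0.0651) or against 12 h (-0.20, adjusted p = 0.133; -0.30 and adjusted p = 0.0432 without washout replicate 3). Without the 4 libraries that held haemoglobin, which leaves 1 library at 12 h, the 12 h value was 0.47 (adjusted p = 0.0506).

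In KO cultures CDKN1A was at 56.6, 53.9 and 60.8 CPM, against 21.9, 24.4 and 22.5 CPM in WT cultures. Every KO library exceeded every WT library, and the gene rose 2.49-fold (log2 1.31, SE 0.0684, adjusted p = 3.56e-10). KO tumours had 53.2, 83.6, 48.4, 71.4 and 94.4 CPM, against 13.7, 8.44, 18.99, 14.5 and 12.9 CPM in control tumours. The groups lay apart by more than the range of the controls, and the rise was 5.16-fold (log2 2.37, SE 0.249, adjusted p = 2.44e-05). On mean ± SD that is 57.1 ± 3.48 CPM in KO and 22.96 ± 1.33 CPM in WT cultures (n = 3 each), and 70.2 ± 19.6 CPM in KO and 13.7 ± 3.77 CPM in control tumours (n = 5 each).

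CDKN1B, which encodes p27, the CIP/KIP inhibitor best known for control by protein decay, rose in the same 4 comparisons by smaller amounts. Degron controls had 84.1, 80.7 and 86.6 CPM, the 12 h libraries 97.9, 96.2 and 92.8 CPM, the washed libraries 80.7, 82.7 and 85.7 CPM and the 72 h libraries 118, 111 and 120 CPM. The washed libraries lay among the controls and below all 12 h libraries. The rise was 0.19 at 12 h (log2, SE 0.0507, adjusted p = 0.0197) and 0.47 at 72 h (1.39-fold, SE 0.05, adjusted p = 1.47e-08). Washout was lower than 12 h (-0.20, adjusted p = 0.00679) and close to control (-0.01, 95% interval -0.11 to 0.09). The call at 12 h was lost without control replicate 2, 12 h replicate 1 or 12 h replicate 2 (adjusted p = 0.0969, 0.101 and 0.0628). Without the libraries holding haemoglobin neither the 12 h call nor that of washout against 12 h held (adjusted p = 0.124 and 0.17).

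In KO cultures CDKN1B was at 97.7, 98.4 and 92.7 CPM, against 75.9, 78.4 and 88.5 CPM in WT cultures. The groups did not overlap and the gene rose by 0.25 on the log2 scale (SE 0.0582, adjusted p = 0.00157). KO tumours had 126, 147, 140, 166 and 187 CPM, against 129, 115, 137, 128 and 122 CPM in control tumours. The lowest KO tumour was within the control range, and the rise was 0.28 (SE 0.0925, adjusted p = 0.0171; adjusted p = 0.0956 with TPM values in limma).

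CDKN1C encodes p57, the imprinted CIP/KIP inhibitor, and was called against its own controls in tumours only. KO tumours had 26.8, 27.4, 22.6, 28.9 and 26.5 CPM, against 18.4, 19.6, 17.5, 15.9 and 20.7 CPM in control tumours. All KO tumours were above all control tumours, and the gene rose 1.44-fold (log2 0.52, SE 0.0884, adjusted p = 0.00013). KO cultures had 8.46, 6.71 and 7.10 CPM, against 3.79, 5.71 and 7.74 CPM in WT cultures, where the third WT library lay inside the KO range. The difference did not pass (0.38, adjusted p = 0.172), although it did without WT replicate 3 (0.62, adjusted p = 0.00803), without the filter on low counts (adjusted p = 0.0305) and with TPM (adjusted p = 0.038). The degron means were 5.02 CPM for controls, 6.34 CPM for 12 h, 5.28 CPM for washout and 4.86 CPM for 72 h. The log2 fold changes from control did not pass (0.35, 0.08 and -0.04 in that order). Between 72 h and 12 h it was lower by 0.39 (adjusted p = 0.0201), a call lost without 12 h replicate 1 or 2 or 72 h replicate 1 (adjusted p = 0.0567 to 0.101), with DESeq2 (0.0647), with total-count scaling (0.0803) and with TPM (0.187). Its difference between tumours and cultures in the KO effect was 0.15 (adjusted p = 0.646), so it was not shown to change more in tumours.

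Of the INK4 genes, CDKN2B (p15, a target of TGF-beta signalling) rose in KO cells and tumours. It had 2.89, 3.39 and 3.45 CPM in KO cultures, against 1.35, 1.28 and 1.68 CPM in WT cultures. KO tumours had 3.77, 6.62, 5.95, 6.90 and 8.31 CPM, against 2.90, 3.22, 2.27, 2.74 and 1.76 CPM in control tumours. Neither pair of groups overlapped. The rise was 2.27-fold in cultures (log2 1.18, SE 0.222, adjusted p = 3e-04) and 2.43-fold in tumours (log2 1.28, SE 0.209, adjusted p = 8.77e-05). These values rest on 69 to 100 counts per KO culture and 28 to 30 per WT culture. Degron counts were also low: controls had 32, 24 and 21, the 12 h libraries 49, 54 and 24, the washed libraries 39, 33 and 20, and the 72 h libraries 65, 45 and 42. At 72 h the libraries were above all controls in CPM, but the log2 fold change of 0.59 did not pass (95% interval 0.03 to 1.14, adjusted p = 0.0799); it did with total-count scaling (adjusted p = 0.0366). The 12 h and washout values were 0.61 and 0.35 (adjusted p = 0.223 and 0.582).

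CDKN2C, which encodes p18, was the highest INK4 transcript among the members. It had 11.6, 10.9 and 11.2 CPM in KO cultures, against 5.46, 6.99 and 10.4 CPM in WT cultures, and 16.5, 12.0, 14.7, 11.4 and 10.7 CPM in KO tumours, against 8.32, 9.43, 9.48, 8.11 and 10.3 CPM in control tumours. Both pairs of groups were apart, though by little. The rise was 0.57 in cultures (SE 0.195, adjusted p = 0.029) and 0.51 in tumours (SE 0.127, adjusted p = 0.00293). The culture call was lost without WT replicate 2 or any 1 KO replicate (adjusted p = 0.106 for WT replicate 2, 0.0914, 0.076 and 0.0788 for KO replicates 1, 2 and 3). At 72 h it averaged 19.3 ± 0.455 CPM, against 16.2 ± 1.64 CPM in degron controls, a rise of 0.25 (adjusted p = 0.0129) that was lost without control replicate 1 or 2 (adjusted p = 0.0762 and 0.0554). At 12 h the value was 0.24 (adjusted p = 0.0955; 0.0456 without control replicate 3) and after washout 0.20 (adjusted p = 0.218).

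CDKN2A, which encodes p16 and, from another reading frame, ARF, was barely detected. Its counts were 8, 0 and 6 in KO cultures and 0, 1 and 3 in WT cultures, sums of 14 and 4. All 5 KO tumours and all 3 libraries at 72 h had 0 counts, against 1, 2, 0, 0 and 0 in control tumours and 0, 3 and 0 in degron controls. A count of 0 allows up to 3 counts, so no difference was detectable at this depth. The overlapping antisense gene CDKN2B-AS1 was likewise not tested, at up to 7 counts per library, whereas MTAP, the neighbouring gene that is often deleted together with CDKN2A, was expressed and fell at 72 h, in KO cultures and in KO tumours by 0.30, 0.40 and 0.32 on the log2 scale.

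CCND1, the main D cyclin of these cells, rose most in KO cultures. It was at 1855, 1758 and 1712 CPM in KO cultures, against 1185, 1277 and 1318 CPM in WT cultures, with no overlap, a rise of 1.41-fold (log2 0.49, SE 0.0487, adjusted p = 4.21e-07). KO tumours had 600, 603, 719, 562 and 658 CPM, against 564, 555, 504, 524 and 492 CPM in control tumours. The lowest KO tumour was just within the control range, and the rise was 0.25 (SE 0.0745, adjusted p = 0.00959; 0.0509 with TPM). The degron means of CCND1 were 1002 CPM for controls, 1117 CPM for 12 h, 1121 CPM for washout and 1093 CPM for 72 h. Groups did not overlap the controls, and the log2 fold changes were 0.16, 0.16 and 0.13 (adjusted p = 0.0346, 0.0382 and 0.0214). Each of these calls was lost in some refits. The 12 h call was lost without control replicate 3, 12 h replicate 1 or 12 h replicate 2 (adjusted p = 0.225, 0.155 and 0.126). The washout call was lost without control replicate 1 or 3 (0.0614 and 0.282) or washout replicate 1, 2 or 3 (0.11, 0.0613 and 0.135), and the 72 h call without control replicate 3 or 72 h replicate 2 (0.205 and 0.0614). Expected counts of CCND1 were not whole in the degron and culture libraries, as RSEM gives where reads are divided between genes, and were whole in the tumour libraries.

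CCND3, the second D cyclin of these cells, fell at 72 h and in KO cultures. At 72 h it was at 62.1, 63.9 and 62.8 CPM, against 88.2, 94.7 and 87.3 CPM in degron controls, and KO cultures had 36.1, 38.9 and 37.8 CPM, against 44.5, 48.4 and 46.4 CPM in WT cultures. The groups were apart in both. It fell by 0.52 on the log2 scale at 72 h (1.43-fold, SE 0.0577, adjusted p = 3.71e-08) and by 0.30 in KO cultures (SE 0.0603, adjusted p = 0.000465). With TPM the culture value was -0.09 (adjusted p = 0.23), a scale on which the median of all genes shifted by 0.18. At 12 h it was at 94.5 CPM and after washout at 101 CPM, with log2 values of 0.07 and 0.16 that did not pass (adjusted p = 0.543 and 0.114). At 72 h it was lower than at 12 h by 0.59 (adjusted p = 6.67e-09). In tumours CCND3 had 27.8, 23.5, 26.7, 21.1 and 21.4 CPM in KO, against 20.8, 20.9, 20.2, 21.4 and 20.3 CPM in control tumours. The groups overlapped, and a small rise of 0.22 (adjusted p = 0.0416) was lost without any 1 of the 5 control tumours or without KO replicate 1, 2 or 3 (adjusted p = 0.0508 to 0.112).

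CCND2 was near the floor in cells, with 0 to 5 counts per library, and low in tumours. KO tumours held 0, 9.79, 6, 7 and 3 expected counts, against 13.68, 30.71, 28, 17.42 and 23.32 in control tumours. All KO tumours were below all control tumours. Because the gene passed the filter through the control tumours alone, the separation and the fitted log2 fold change (-1.75) are given as a description, with no test. Markers of host cells were low in the same libraries. The fibroblast list (6 genes) summed to 1.97 to 4.36 TPM in KO and 1.63 to 3.46 TPM in control tumours, with COL1A2 and DCN at 0 to 2 counts in every tumour. The 2 fibroblast genes that passed the filter went opposite ways. PDGFRB, a receptor of pericytes and fibroblasts, was lower, at 3 to 14 counts in KO and 68 to 107 counts in control tumours. Like CCND2 it passed the filter through the control tumours, so its difference is a description, with no test. COL1A1, a collagen chain gene, was higher, at 138 to 355 counts in KO and 46 to 343 counts in control tumours (log2 1.62, adjusted p = 0.0147). The leukocyte list (7 genes) summed to 2.38 to 8.16 TPM in KO and 4.57 to 10.1 TPM in control tumours, with PTPRC, LYZ and CD3E at 0 to 2 counts. The endothelial list (4 genes) summed to 0.78 to 1.11 TPM in KO and 0.18 to 0.28 TPM in control tumours, nearly all of it VWF. Cultures, which hold no host cells, had 0.76 to 1.03 TPM in KO and 0.40 to 0.64 TPM in WT. VWF was also higher in cells without a host, by 0.765 on the log2 scale in KO cultures and by 1.58 at 72 h. The part of mouse reads or host cells in the CCND2 values was not tested.

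CDK6, the kinase partner of the D cyclins, fell most in KO cultures. It was at 17.6, 15.9 and 18.2 CPM in KO cultures, against 35.2, 32.5 and 33.6 CPM in WT cultures. No library overlapped, and the gene fell 1.96-fold (log2 -0.97, SE 0.0757, adjusted p = 3.08e-08). At 72 h it had 44.2, 39.7 and 38.3 CPM, against 55.1, 46.8 and 49.6 CPM in degron controls with no overlap, a fall of 0.31 (SE 0.073, adjusted p = 0.000798) that did not pass with TPM (-0.25, adjusted p = 0.0929). At 12 h it had 46.5, 48.5 and 49.2 CPM and after washout 51.5, 43.6 and 43.9 CPM, neither called (adjusted p = 0.642 and 0.388). At 72 h it was lower than at 12 h by 0.24 (adjusted p = 0.00736), a call lost without 72 h replicate 3 (adjusted p = 0.0507), with total-count scaling (0.132) and with TPM (0.498). KO tumours had 32.0, 40.6, 31.9, 36.1 and 46.1 CPM, against 41.0, 42.5, 39.9, 40.6 and 33.6 CPM in control tumours. These groups overlapped widely, and the value of -0.08 did not pass (95% interval -0.28 to 0.12, adjusted p = 0.511).

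Among the other contrasts of the degron cells, washout against 12 h called 1 of 8 members, CDKN1B, which was lower, against 17.4% of all genes (9.27% higher, 8.15% lower), and groups were apart for 1 of 8, against 33.5%. At 72 h against 12 h 2 were higher (CDKN1A and CDKN1B) and 3 lower (CDKN1C, CCND3 and CDK6), against 55.4% of all genes (26.8% higher, 28.6% lower), and groups were apart for 5 of 8, against 63.0%.

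Effects were compared between systems by interaction contrasts, which tested 8 members for 72 h against culture KO. Here 3 of 8 differed, against 44.1% of all genes (23.0% higher, 21.1% lower). The log2 fold change at 72 h minus that in KO cultures was 0.24 for CDKN1B (SE 0.0756, adjusted p = 0.0128), which rose more at 72 h. It was 0.68 for CDK6 (SE 0.11, adjusted p = 1.28e-05), which fell less at 72 h, and -0.36 for CCND1 (SE 0.0659, adjusted p = 7.53e-05), which rose less at 72 h. CDKN1B lost its call without WT culture replicate 3 (adjusted p = 0.0562), and CDKN1B and CDK6 lost theirs with TPM (adjusted p = 0.259 and 0.136). CDKN1A did not pass (-0.15, 95% interval -0.37 to 0.07, adjusted p = 0.298), nor did CCND3 (-0.20, adjusted p = 0.0516; 0.0412 and 0.042 without WT culture replicate 2 or KO culture replicate 1, 0.0386 with DESeq2 size factors in edgeR and 0.0119 with TPM). CDKN1C and CDKN2C, at -0.41 and -0.31 (adjusted p = 0.198 and 0.187), were called without WT culture replicate 3 (adjusted p = 0.0239 and 0.00193).

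Between tumours and cultures 3 of 9 members differed in the KO effect, against 27% of all genes (12.6% higher, 14.4% lower). The log2 fold change in tumours minus that in cultures was 1.07 for CDKN1A (SE 0.333, adjusted p = 0.0279), which rose more in tumours. It was 0.91 for CDK6 (SE 0.152, adjusted p = 0.00013), which fell in cultures and did not pass in tumours, and 0.54 for CCND3 (SE 0.113, adjusted p = 0.00128), which fell in cultures and had a small rise in tumours. CDKN1A lost its call without WT culture replicate 1, 2 or 3 or KO culture replicate 1 or 2 (adjusted p = 0.0509, 0.0699, 0.0519, 0.0598 and 0.0634). With TPM the CDKN1A and CCND3 calls were lost (adjusted p = 0.071 and 0.208), and the median of all genes shifted by -0.26. CCND1 did not pass (-0.23, adjusted p = 0.113) but did without KO tumour replicate 3 (adjusted p = 0.0317) and with TPM (-0.52, adjusted p = 0.000846). CDKN1B, CDKN1C, CDKN2B and CDKN2C differed by -0.05 to 0.15 and did not pass.

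The makeup of each family was described from TPM, without a test. CDKN1A made up 36.6, 37.0 and 41.2% of CIP/KIP transcripts in the 3 KO cultures (listed low to high), against 20.8, 23.3 and 24.3% in WT cultures, and a mean of 29.3% in KO tumours, against 9.41% in control tumours. Its mean share in degron cells was 12.6% for controls, 15.2% for 12 h, 15.1% for washout and 19.5% for 72 h. CDKN1B was still the largest part everywhere, with mean shares of 54.0 to 79.8%. CCND1 made up 95.3% of D cyclin transcripts in KO cultures and 92.2% in WT cultures, and 88.5% at 72 h against 83.4% in degron controls. In tumours its share was 91.9% in KO and 91.7% in controls. The sum of CIP/KIP per 100 D cyclin transcripts was 74.4 in KO tumours and 52.98 in control tumours with overlap, 17.4 in KO and 15.7 in WT cultures, and 22.7 at 72 h against 15.9 in degron controls. CDK6 made up at most 4.21% of CDK4 plus CDK6 transcripts in any library.

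**Figure D3:**
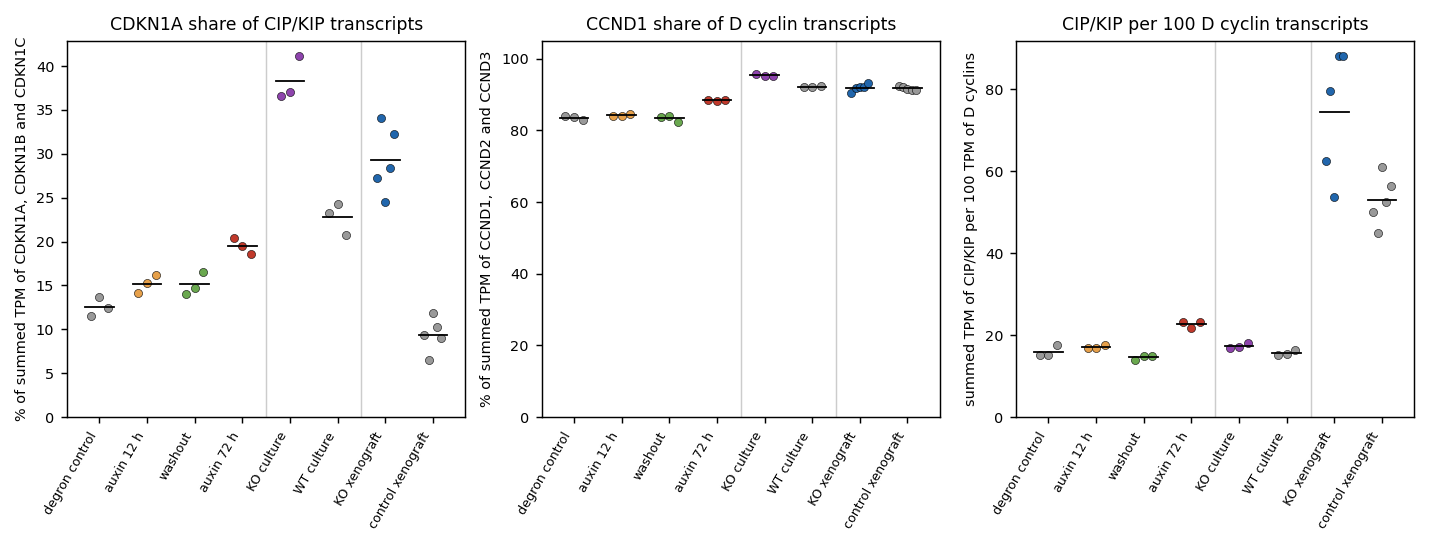
Share of CDKN1A in CIP/KIP transcripts (left, %), share of CCND1 in D cyclin transcripts (middle, %) and summed CIP/KIP TPM per 100 TPM of D cyclins (right), for each library (points) with the group mean (line); y axes start at 0. CDKN1A takes 24.6 to 34.1% in KO tumours, above the 6.52 to 11.9% of control tumours, while the CIP/KIP to D cyclin values of KO tumours, 53.8 to 88.1, overlap those of control tumours, 45.0 to 61.1.

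Kinases and inhibitors outside the set, and the gene lists after them, gave context. Their counts of called genes stand against 7.39% of all genes called at 12 h, 5.00% after washout, 57.8% at 72 h, 59.1% in KO cultures and 56.1% in KO tumours. CDK4, the other partner of the D cyclins, fell by 0.62 at 72 h, by 0.63 in KO cultures and by 0.44 in KO tumours on the log2 scale, and CDK2 by 0.38, 0.32 and 0.78. CDKN2D (p19, the remaining INK4 gene) rose by 0.52 at 72 h, by 0.60 in KO cultures and by 0.41 after washout. In KO tumours CDKN2D did not pass (0.19). At 12 h CDK4 was lower by 0.18. Of the 5 genes outside the set (CDKN2D, CDK4, CDK2, CDK1 and CDKN3), 1 was higher and 3 lower at 72 h. With total-count scaling these counts were 2 and 3, and with TPM 2 and 2. The median was -0.38, beside 0.00 over all genes.

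Genes that E2F factors switch on for DNA replication were lower after long loss of GATA6. Of 24 genes, 1 rose and 18 fell at 72 h (median -0.29, beside 0.00 over all genes), 23 fell in KO cultures (median -0.76, beside 0.02), and all 24 fell in KO tumours (median -0.78, beside -0.01). At 12 h the single gene called was CCNE2, a cyclin E, which rose by 0.25, and which fell by 0.33 in KO cultures. After washout 0 of the 24 passed with edgeR or DESeq2, and 6 had an unadjusted p under 0.05. In KO cultures the helicase subunit genes MCM6, MCM4, MCM2 and MCM7 fell by 1.07, 1.04, 0.92 and 0.85. In KO tumours the licensing genes ORC1 and CDT1 fell by 1.34 and 1.15. At 72 h thymidylate synthase TYMS fell by 0.62 and CCNA2 (cyclin A) by 0.47. The log2 fold change was higher at 72 h than in KO cultures for 20 of the 24 by the interaction contrast, against 23.0% of all genes (median difference 0.49, beside 0.01 over all genes). With total-count scaling 16 fell and 3 rose at 72 h, and with TPM 15 and 3.

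Of 17 mitotic and proliferation genes, 16 fell in KO tumours (median -0.70), 3 rose and 11 fell in KO cultures (median -0.24; 4 and 7 with TPM), and 5 rose and 2 fell at 72 h (median 0.03; 11 rose and 1 fell with total-count scaling). The 7 of 17 called at 72 h were a smaller share than the 57.8% of all genes. The log2 fold change at 72 h was above that of culture KO for 13 of the 17 and below it for 1 by the interaction contrast. Among pocket proteins and E2F factors, the E2F4 gene fell at 72 h, in KO cultures and in KO tumours by 0.47, 0.43 and 0.60. RBL2, which encodes p130, the pocket protein of resting cells, rose by 0.59 in KO cultures and 0.32 in KO tumours. At 72 h RBL2 did not pass (0.17). RB1, the retinoblastoma gene, fell by 0.225 at 72 h, rose by 0.63 in KO tumours and did not pass in KO cultures (0.035). Of these 13 genes, 2 rose and 7 fell in KO tumours (median -0.51).

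**Figure D4:**
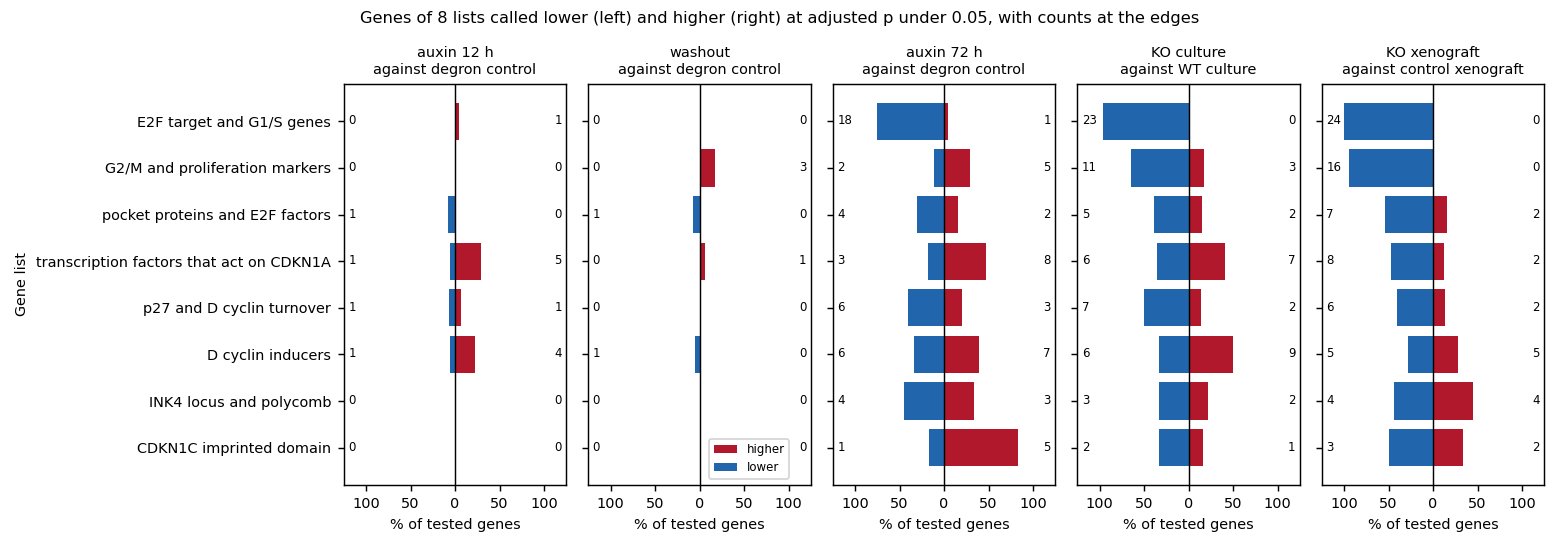
Percentage of the tested genes of 8 lists (rows) called higher (right, red) or lower (left, blue) in 5 comparisons (panels), with the number of genes called at the panel edges. The replication list has 18, 23 and 24 genes lower at 72 h, in KO cultures and in KO tumours, and 0 lower at 12 h and after washout.

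Transcription factors known to act on CDKN1A included the repressor MYC. MYC fell by 0.58 at 12 h (adjusted p = 1.43e-05), 0.45 at 72 h, 2.03 in KO cultures and 1.89 in KO tumours. Of the 17 tested, 5 rose and 1 fell at 12 h, against 7.39% of all genes called. Those that rose were FOXO3 (0.40), KLF4 (0.29), SMAD3 (0.25), SP3 (0.19) and FOXO1 (0.28), named because all were called. FOXO1 fell by 0.23 in KO cultures and SP3 by 0.23 in KO tumours. With TPM 2 rose and 1 fell at 12 h. At 72 h 8 rose and 3 fell (median 0.18), among those that rose KLF4 by 0.82, FOXO3 by 0.71 and ZBTB17, the MYC partner MIZ1, by 0.64. In KO cultures 7 rose and 6 fell (median -0.07, but 0.11 with TPM) and in KO tumours 2 rose and 8 fell (median -0.01). SMAD3, a TGF-beta effector, was higher at 12 h, at 72 h, in KO cultures and in KO tumours.

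Genes for the turnover of p27 and D cyclins gave 3 that rose and 6 that fell at 72 h (of 15, median -0.19), 2 and 7 in KO cultures (of 14, median -0.13) and 2 and 6 in KO tumours (of 15, median -0.15). These shares are near those of all genes called (57.8%, 59.1% and 56.1%). SKP2, the ligase subunit that marks p27 for decay, fell by 0.85 in KO cultures and 0.51 in KO tumours, and GSK3B, a kinase that marks cyclin D1 for decay, rose by 0.47 in KO cultures and 0.33 in KO tumours. At 72 h the cullin adaptor DDB1 fell by 0.42. With TPM the turnover genes that rose and fell were 5 and 3 at 72 h, 3 and 2 in KO cultures and 1 and 9 in KO tumours, and with total-count scaling 6 and 5 at 72 h and 3 and 5 in KO cultures.

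In the list of D cyclin inducers, which also held TCF4, 4 rose and 1 fell at 12 h (of 18). At 72 h 7 rose and 6 fell, in KO cultures 9 and 6, and in KO tumours 5 and 5. The medians were 0.06, 0.07, 0.13 and -0.09 in that order. The shares of all genes called were 7.39%, 57.8%, 59.1% and 56.1%, so that the tumour count was at the background. With TPM these counts were 1 and 0, 8 and 3, 10 and 2, and 4 and 8, and total-count scaling gave 10 and 5 at 72 h. ETS1 rose by 0.50 at 12 h, 1.14 at 72 h, 1.94 in KO cultures and 1.49 in KO tumours. FOS rose by 1.96 in KO cultures but fell by 1.93 after washout and by 2.29 at 72 h. LEF1, a nuclear partner of beta-catenin, rose by 0.22 at 12 h, by 0.84 at 72 h and by 1.73 in KO tumours and fell by 1.26 in KO cultures. TCF4 fell by 1.45 at 12 h, 2.04 at 72 h, 2.32 in KO cultures and 2.07 in KO tumours. It is the E protein gene, not TCF7L2, so the counts above include a gene that does not belong among the inducers of D cyclins.

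Polycomb genes hold the INK4 locus silent in many cells. Their list also held MTAP and KDM6B, a demethylase that removes the polycomb mark. Of the 9 tested, 3 rose and 4 fell at 72 h (4 and 3 with total-count scaling). In KO cultures 2 rose and 3 fell, and in KO tumours 4 and 4. The medians were -0.06, -0.08 and 0.08. KDM6B was among those that rose at 72 h (0.72) and in KO tumours (0.58), and did not pass in KO cultures (0.03). The share of all genes called was 57.8%, 59.1% and 56.1%, and the culture count was near it. EZH2, the polycomb methyltransferase, fell by 0.86 in KO cultures and 0.94 in KO tumours, and CBX7, a polycomb reader, rose by 0.76 at 72 h and 1.06 in KO cultures and did not pass in KO tumours (0.08). Of 6 genes of the imprinted region around CDKN1C, 5 rose and 1 fell at 72 h (median 0.58), while CDKN1C itself did not pass there. Among the 6, H19 and IGF2 belong to a neighbouring imprinted domain and not to that of CDKN1C. In KO cultures 1 rose and 2 fell (2 and 1 with TPM), and in KO tumours 2 rose and 3 fell (1 and 3 with TPM), with medians of -0.24 and -0.21. IGF2 rose by 1.83 at 72 h and fell by 0.75 in KO tumours. H19 fell by 6.06 in KO cultures and 1.52 in KO tumours and rose by 0.65 at 72 h, and KCNQ1OT1, the noncoding RNA that silences CDKN1C in cis, fell by 1.04 in KO cultures and rose by 0.51 at 72 h and by 0.79 in KO tumours.

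The genes most like each member were ranked by Pearson correlation of log2(TPM + 1) over the 28 libraries, among 11536 genes. The libraries fall into 3 systems that differ in depth and growth, which these values also contain, and no test was made. For CDKN1A they were MPP7 (r = 0.971), CD24 (0.959) and TBC1D10A (0.957), for CDKN1B KDM4B, EXOC7 and TPRN, with 0.939 for KDM4B, and for CDKN1C IFITM1 (0.97), NUDT14 and CAB39L. CCND1 was most like TIMP2 (0.987), ITGB5 (0.985) and KRT80 (0.984), CCND3 like TXNDC17 (0.988), TM7SF3 and DANCR, CDK6 like LSG1 (0.916), CNNM3 (0.912) and FTL (0.91), and CDKN2C like ALKBH6 (0.908), ATP6V1F (0.901) and MBD3 (0.898).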

How the data were processed

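Poly-A selected, directional libraries were made per the labels' protocols. Gene-level expected counts and TPM were deposited by the authors as a pair of files per library. Trim Galore 0.6.10, STAR, RSEM and the build hg38 appear in the submitters' processing notes; the annotation, strand setting and treatment of mouse reads are not given in the sources used here. Genes were joined by Ensembl identifier without version.

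The deposited expected counts, rounded to whole numbers, went into edgeR 4.0.16 under R 4.3.3 (low counts removed by filterByExpr at a minimum of 10, TMM, robust quasi-likelihood F tests, Benjamini-Hochberg adjustment over all genes, threshold 0.05). The 12 degron libraries were fitted together, cultures and tumours each alone, and effects were compared in joint fits of 2 systems. The SE is the size of the log2 fold change over the square root of F. CPM are TMM-scaled. The floor for a count of 0 is 3 counts per library; it covers counting error only. Deposited TPM were used for levels between genes and, as log2(TPM + 1) and log2(TPM + 0.1), in limma 3.58.1; DESeq2 1.42.0 was an alternative. The test was checked on simulated data. Replicate numbers were checked for pairing, and none was detected.

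The members, the pathway and marker lists and the rule for named genes (all members, GATA6, up to 4 genes of each list with the smallest p per comparison, and the 3 genes most like each member) were chosen with earlier results of these data known. A gene the rule picked in 1 comparison is also given in others, and SP3, FOXO1, ETS1, RBL2 in tumours and KCNQ1OT1 were named after their values were seen. A further gene list is not reported here.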

Additional observations from a re-analysis of the deposited data

Results flagged for a closer look

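A total of 6 effects differed between systems by an interaction contrast in edgeR's quasi-likelihood test. Between 72 h of auxin and culture KO these were CDKN1B (difference in log2 fold change 0.235, adjusted p = 0.0128), CCND1 (-0.355, adjusted p = 7.53e-05) and CDK6 (0.677, adjusted p = 1.28e-05). CDKN1B rose in both, by 0.47 at 72 h and 0.25 in KO cultures, in 3 of 3 libraries each; CCND1 rose by 0.13 and 0.49, and CDK6 fell by 0.31 and 0.97. The degron cells and the KO cells also differ in the tag and in time without GATA6, and may differ in clone, which cannot be told apart here.

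Between tumour and culture KO they were CDKN1A (1.073, adjusted p = 0.0279), CCND3 (0.536, adjusted p = 0.00128) and CDK6 (0.906, adjusted p = 0.00013). CDKN1A rose by 2.37 in KO tumours and 1.31 in KO cultures. CCND3 was higher by 0.22 in KO tumours and lower by 0.30 in KO cultures, and CDK6 did not pass in KO tumours (-0.08) and fell by 0.97 in KO cultures. No library stood far from its group in the 5 against 5 tumours for any member apart from CDK6. For that gene, control tumour replicate 5 lay below every other control tumour.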

How the results depend on the processing

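Of 1184 recomputed values of single genes, 1040 kept their direction and side of the threshold, 75 lost a call, 20 gained one and 49 changed sign, none of these last in a called contrast of a member with its own controls. Members called became 0 after washout and 3 at 72 h against 12 h with TPM at either pseudocount, 3 at 72 h against 12 h with total-count scaling, and 5 in tumours with TPM. Without the degron libraries holding haemoglobin, chosen after seeing the data, they were 0 at 12 h, 0 after washout, 0 for washout against 12 h and 3 for 72 h against 12 h; 1 library each then remained at 12 h and washout, assumed to vary like the other groups. The cause was not tested beyond the fewer libraries.

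Leaving out 1 library gave 1 to 3 members called at 12 h, 0 to 1 after washout, 5 to 6 at 72 h, 1 to 2 for washout against 12 h, 4 to 5 for 72 h against 12 h, 6 to 8 in cultures, 7 to 8 in tumours (CCND2 included), 3 to 4 for 72 h against culture KO and 2 to 4 for tumour against culture KO. In the same order, all genes called in these refits numbered 606 to 1170, 321 to 896, 7257 to 7685, 1414 to 2266 and 6723 to 7650 in degron cells. They numbered 7373 to 8041 in cultures, 7579 to 8496 in tumours, and 5965 to 6529 and 3627 to 4611 for the last 2 contrasts. Log2 values that changed sign this way ran from -0.097 to 0.003 (GATA6 at 12 h), from -0.047 to 0.011 (CDKN1B, washout), from -0.063 to 0.189 (CDKN1C, washout), from -0.178 to 0.067 (CDKN1C, 72 h), from -0.106 to 0.002 and from -0.033 to 0.021 (CDKN2C and CCND1, washout against 12 h), from -0.238 to 0.16 and from -0.035 to 0.061 (CDKN2B and CDKN2C, 72 h against 12 h), and, for tumour against culture KO, from -0.03 to 0.113 (CDKN1B), from -0.101 to 0.376 (CDKN1C), from -0.321 to 0.139 (CDKN2C) and from -3.618 to 2.353 (CCND2).

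With TPM (pseudocounts 1 and 0.1) the signs that changed were those of GATA6 at 12 h (0.072, 0.075), CDKN1C at 72 h (0.057, 0.071), CCND1 (-0.029 in both) and CDK6 (0.04, 0.045) for washout against 12 h, CCND1 for 72 h against 12 h (0.045 in both), and, for tumour against culture KO, CDKN1B (-0.249, -0.255), CCND2 (-0.167, -0.864) and, at 0.1, CDKN1C (-0.003) and CDKN2B (-0.016). With total-count scaling they were CDKN1C at 72 h (0.081), CCND1 for washout against 12 h (-0.016), CDKN2B (0.084) and CCND1 (0.069) for 72 h against 12 h, and CDKN1B for tumour against culture KO (-0.048). Without the libraries holding haemoglobin they were GATA6 after washout (-0.043), CDKN2C (0.058), CCND1 (-0.063) and CCND3 (-0.048) for washout against 12 h and CDKN2C for 72 h against 12 h (-0.009). Against the TMM scale the median of all genes shifted by 0.124 at 72 h with total-count scaling, and with TPM by 0.117 at 72 h, 0.183 in cultures and -0.263 for tumour against culture KO.

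Deviations of same-numbered libraries had r of -0.302 to -0.022 in cultures, -0.203 to 0.287 in degron cells and -0.138 to 0.012 in tumours. No pairing by number was detected, but groups this small cannot exclude it. With the replicate number as a block, members called were 7 at 72 h (CDKN2B joined, 0.592, adjusted p = 0.0419), 7 in tumours (CCND3 left, adjusted p = 0.0672) and 2 for tumour against culture KO (CDKN1A left, 1.058, adjusted p = 0.122); the other counts of members called were the same. Genes under about 10 counts, CDKN2A and CCND2 in cells, are beyond what this depth can compare.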
